A study of Mus musculus with 93 samples.

Results

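Cells carrying the I53A mutation of Ring1b were compared with wild type mouse embryonic stem cells in 6 RNA-seq libraries, 3 of each. They were chosen by their titles, which place replicates 1 to 3 of both in the first RNA-seq set, and they are 6 of the 93 samples of the series. Both groups carry the strain label R1, and both were grown with 10% fetal bovine serum and leukaemia inhibitory factor. The first group is labelled as wild type and the other by the genotype Ring1b I53A. The labels give no passage, number of clones or way of making the I53A allele. A further 3 wild type libraries of the second RNA-seq set served as a reference for the level of each gene. No label states that the replicates were separate cultures. The p-values thus describe the spread among these libraries alone, and that spread may be technical.

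Ring1b, the product of Rnf2, is the subunit of Polycomb repressive complex 1 that places a ubiquitin group on histone H2A. In embryonic stem cells this complex sits mainly at CG-rich promoters of developmental genes, which are held silent there. The I53A change lies where Ring1b contacts the ubiquitin-conjugating enzyme, and the comparison asks which genes differ in cells with that change.

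Libraries held between 12585621 and 18045900 counts, with at least 1 count for 19719 to 20205 genes in wild type and 20450 to 21195 genes in I53A. Replicate 3 of both groups stood apart. Its table carries another file-name style than those of replicates 1 and 2, and it was the shallowest of its group. It differed from the others by a chi-square per degree of freedom of 21.2 to 27.3, against 2.93 and 4.06 between replicates 1 and 2. The replicate number was a block in the fit, as the plan of the comparison asked because replicate 3 carries another file-name style. Levels are given in CPM, the count scaled to library size with TMM factors. The mitochondrial ribosomal RNA gene mt-Rnr2 had 319.6, 298.8 and 1444.1 CPM in wild type, and the I53A libraries held 625.0, 776.7 and 2672.0 CPM, so replicate 3 was highest in both groups. Rnf2 itself (chromosome 1, 153316536 to 153347953, minus strand, mm9 as for all gene positions) had 192.3, 188.5 and 177.4 CPM in wild type and 98.0, 95.7 and 85.6 CPM in I53A, and the groups did not overlap (edgeR adjusted p = 2.2e-11). A point mutation need not alter the RNA level, so these values do not check the label.

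Over all genes tested 28.1% were called higher and 28.5% lower, and the marker counts here stand beside these shares. All 12 embryonic stem cell markers were tested, with 7 lower and 2 higher, and 5 lower and 1 higher without the block. Their sum was 6780.1 to 7314.3 CPM in wild type and 5751.0 to 6088.1 CPM in I53A. Pou5f1, a core pluripotency factor, had 1464.8, 1373.0 and 1143.9 CPM against 1439.9, 1308.6 and 1124.4 CPM, and the groups overlapped. It was not called, unlike most of the list. The 7 lower included Sox2 (log2 fold change -0.67 ± 0.04, ± SE), Esrrb (-0.60 ± 0.03) and Nanog (-0.36 ± 0.03). The 2 higher were Tdgf1 (0.96 ± 0.18) and Klf4 (0.40 ± 0.05). Markers of extraembryonic endoderm, the yolk sac lineages, summed to 790.9 to 1018.7 CPM in wild type and 2440.3 to 2584.6 CPM in I53A, with 10 of 11 tested higher and Apoe lower. Apoe made up most of the wild type sum, and without it the endoderm markers summed to 129.6, 127.9 and 141.7 CPM in wild type and 2313.2, 2256.5 and 2252.2 CPM in I53A. Fibroblast markers summed to 1470.9 to 1551.1 CPM against 1422.3 to 1589.4 CPM, and without Fn1 to 34.2, 33.5 and 33.7 CPM against 75.1, 70.9 and 75.2 CPM. Of these, 5 of 7 tested were higher, among them Col1a2 (3.95 ± 0.35), Pdgfrb (1.45 ± 0.12), Col1a1 (1.27 ± 0.21) and Thy1 (1.02 ± 0.09), while Dcn, Lum, Postn and Prrx1 had at most 0.158 CPM in any library. Trophoblast markers summed to 11.8 to 15.3 CPM against 23.0 to 30.3 CPM, and blood markers to at most 0.687 CPM against 1.24 CPM, with Hbb-b1 at 0 counts in every library. In bulk RNA, more cells of a type and more RNA per cell cannot be told apart. The part of endoderm or fibroblast cells in the results that follow was not tested.

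EdgeR's quasi-likelihood test with the replicate block called 4371 of 15536 genes tested higher in I53A (28.1% of genes tested) and 4426 lower (28.5%), at a Benjamini-Hochberg adjusted p under 0.05. Without the block 2808 were called higher and 2703 lower, and 5503 genes had the same call in both fits. Changes of at least 2-fold numbered 1408 higher (9.06% of genes tested) and 616 lower (3.96%), and 1860 of these were also called at that size and sign without the block. The median log2 fold change over all genes tested was -0.0018.

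Genes that were silent in one group and active in the other were picked by a rule that uses the contrast itself, so they are described with no test. A gene counted as silent with at most 3 counts summed over the 3 libraries of a group, and as active with at least 1 CPM in each library of the other. By this rule 25 genes were silent in wild type and active in I53A, and 2 were active in wild type and silent in I53A. The 25 had group means of 1.14 to 6.55 CPM in I53A, which are low levels. In the wild type libraries of the second set, which the rule did not use, 22 of the 25 also had at most 3 counts in all, and the most was 20 counts. Just outside the rule, 56 genes had 4 to 10 counts over wild type and at least 1 CPM in each I53A library, against 3 genes in the opposite direction. A further 36 were silent in wild type with 0.5 to 1 CPM in the lowest I53A library.

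Promoter windows of 4 of these genes are shown because they run from high to low CG content among the genes switched on. They come from RefSeq (GRCm38.p6, unlike the counts, which use mm9), read 5′ to 3′ on the gene's own strand from 250 bases before the start to 50 bases after it, and have each CG in capitals. Zic1 is at chr9:91365719-91366018 (minus strand), Hoxb4 at chr11:96318017-96318316 (plus strand), Enpep at chr3:129332700-129332999 (minus strand) and Timd2 at chr11:46707055-46707354 (minus strand).
Zic1: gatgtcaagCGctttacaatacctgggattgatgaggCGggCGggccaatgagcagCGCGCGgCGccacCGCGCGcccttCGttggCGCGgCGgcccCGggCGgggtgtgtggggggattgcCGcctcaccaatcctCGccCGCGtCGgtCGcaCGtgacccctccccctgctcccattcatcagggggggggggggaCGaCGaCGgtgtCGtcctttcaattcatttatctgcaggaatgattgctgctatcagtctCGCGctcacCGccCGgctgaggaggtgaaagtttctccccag
Hoxb4: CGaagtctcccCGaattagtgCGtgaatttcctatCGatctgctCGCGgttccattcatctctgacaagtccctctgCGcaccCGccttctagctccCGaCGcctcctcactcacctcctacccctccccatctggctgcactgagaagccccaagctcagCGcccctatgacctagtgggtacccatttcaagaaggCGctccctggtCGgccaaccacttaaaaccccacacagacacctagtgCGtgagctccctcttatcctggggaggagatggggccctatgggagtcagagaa
Enpep: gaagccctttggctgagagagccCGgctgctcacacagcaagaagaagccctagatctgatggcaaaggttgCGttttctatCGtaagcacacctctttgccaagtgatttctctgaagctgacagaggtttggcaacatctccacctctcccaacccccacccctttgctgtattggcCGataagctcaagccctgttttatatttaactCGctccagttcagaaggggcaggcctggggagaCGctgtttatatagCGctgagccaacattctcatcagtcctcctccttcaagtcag
Timd2: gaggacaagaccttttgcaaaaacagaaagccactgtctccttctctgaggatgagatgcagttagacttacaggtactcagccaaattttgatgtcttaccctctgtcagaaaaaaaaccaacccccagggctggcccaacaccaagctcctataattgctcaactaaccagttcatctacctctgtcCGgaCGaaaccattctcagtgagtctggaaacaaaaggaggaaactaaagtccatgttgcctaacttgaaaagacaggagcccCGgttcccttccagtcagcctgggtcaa
The dinucleotide CG, which reads the same on both strands, occurred 31 times in the window of Zic1, 14 times in that of Hoxb4, 7 times in that of Enpep and 3 times in that of Timd2. Among 27025 windows of the same length 94.2% held at least 1 CG and the median was 7, with quartiles of 3 and 20. The window of Zic1 thus lay above the upper quartile and that of Timd2 at the lower one. A window was found for 18 of the 25 genes. For all genes tested it was found for 11427 of 15536 (73.6%), too few for a comparison of promoter classes, which was not made.

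The secreted ligands and inhibitors among the 25 included Dkk1, Igf1 and Bmp2. Dkk1, a secreted inhibitor of Wnt signalling (chromosome 19, 30620353 to 30624155, minus strand), had 0, 0 and 1 counts in wild type and 130, 105 and 83 counts in I53A. Igf1, an insulin-like growth factor, had 2, 0 and 0 counts against 47, 51 and 52. Bmp2, a ligand of the TGF-beta family (named after its values were seen), had 1, 0 and 0 counts against 34, 44 and 25. That each I53A library lay above each wild type library is set by the rule that picked them. Ratios of summed counts, scaled to library totals, were 323.3 for Dkk1 (exact 95% counting interval 57.6 to 12810.3), 76.3 for Igf1 (20.7 to 635.5) and 104.7 for Bmp2 (18.4 to 4176.0). Counts carry no molecular identifiers, so intervals and floors cover counting error only. Ratios and floors also come from the counts that picked these genes, and the intervals do not cover that choice.

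Of the other genes with the highest levels, several encode enzymes, channels and surface proteins. Enpep, a membrane peptidase that cleaves angiotensin (chromosome 3, 128972093 to 129035638), had 0 counts in every wild type library and 75, 77 and 48 counts in I53A. Timd2, a surface receptor gene (chromosome 11, 46482462 to 46520563), likewise had 0 against 44, 70 and 37 counts. Tcfec, whose product belongs to the Mitf family of transcription factors, had 0 against 95, 143 and 47 counts. Set against 3 counts as the floor of a group, they were at least 67.8-fold, 51.2-fold and 96.6-fold higher. The water channel gene Aqp8 had 0, 1 and 1 counts against 69, 80 and 53. Clic5, which encodes a chloride intracellular channel protein, had 1, 2 and 0 against 98, 108 and 61. In both, the rule likewise sets the wild type libraries below those of I53A. Leprel1, a collagen prolyl hydroxylase gene, had 0, 0 and 3 counts against 77, 70 and 70. The span of Lgals2, a galectin gene, overlaps Cdc42ep1 and no strand option was used in counting, so its 0 counts in wild type against 66, 67 and 26 in I53A are uncertain.

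Some transcription factors and neighbouring genes are named after their values were seen. Hoxb4, Hoxc9 and Zic1, regulators of body patterning, had 3, 3 and 1 counts summed over wild type and 90, 67 and 63 over I53A, and the span of Zic1 overlaps Zic4. Akr1c14 and Akr1c12, aldo-keto reductase genes that lie 177.8 kb apart on chromosome 13, had 2 and 2 counts against 89 and 56. No other pair of the 25 lay within 1 Mb. Of the 25, 4 have provisional names only.

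In the opposite direction, Rtl1, a retrotransposon-derived gene of the imprinted Dlk1-Dio3 region (chromosome 12, 110827404 to 110838540), had 18, 25 and 38 counts in wild type and 2, 0 and 0 in I53A. Its span overlaps several microRNA genes. Reads given the name SNORD113, a set of small nucleolar RNA genes at several places, had 49, 41 and 33 counts against 0 in every I53A library. In the second set's wild type, Rtl1 had 3 counts and SNORD113 1 over 3 libraries, so both were near silent there too.

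**Figure D1:**
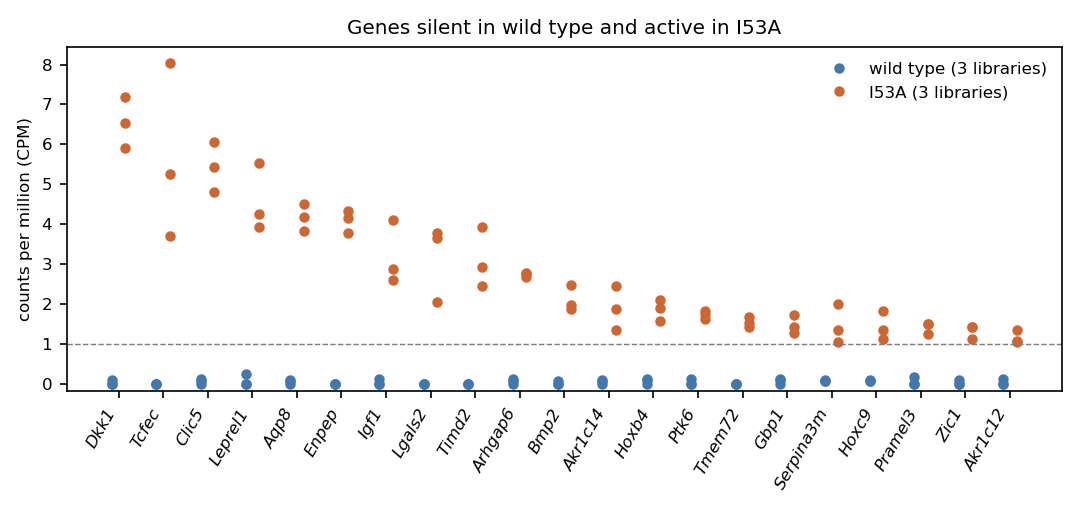
Level in CPM (vertical axis) of the 21 genes with full names that were silent in wild type and active in I53A, 1 point per library, with the activity limit of 1 CPM as a dashed line. All wild type points lie near 0 and all I53A points above the line, as the rule sets.

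The level of a gene was next set against its response. So that the samples compared did not set the level classes, these were made from the mean CPM of the second set's wild type. Among genes at 0.1 to 1 CPM there, 28.5% of 1854 tested were at least 2-fold higher in I53A and 6.31% at least 2-fold lower, with a median log2 fold change of 0.39. At 1 to 10 CPM the shares were 11.6% and 6.89% of 4033 genes (median 0.02). At 10 to 100 CPM they were 1.68% and 2.52% of 6793 genes (median -0.06), and over 100 CPM 0.538% and 1.28% of 2415 genes (median -0.04). Large rises were thus most frequent at low levels, while over 10 CPM more genes were lower than higher. In these upper classes 26.1% and 28.7% were called higher and 36.5% and 40.1% lower without a fold limit, so most calls there were small. The median size of the log2 fold change was 0.26 at 10 to 100 CPM and 0.20 over 100 CPM.

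Genes under 0.1 CPM pass the low-count filter mostly when one group lifts them, so the filter itself can set the direction among the 441 tested. Of 4408 genes at 0.1 to 1 CPM 1854 were tested, so the filter can act on the shares of that class too. A count without the filter was therefore made in both directions over all 33924 gene names. Of 16054 genes under 0.1 CPM in the second set's wild type, 148 had at least 1 CPM in every I53A library and under 1 CPM in every wild type library, and 10 had the reverse. Of 4408 genes at 0.1 to 1 CPM these numbers were 191 and 39, and of 4235 genes at 1 to 10 CPM they were 36 and 42. No gene of the higher classes crossed the limit in either direction. The classes under 1 CPM are low in a wild type by choice, which makes the reverse crossing rarer in them. Their counts thus cannot decide the direction. Over all gene names, whatever their class, 375 crossed upward in I53A and 91 had the reverse.

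**Figure D2:**
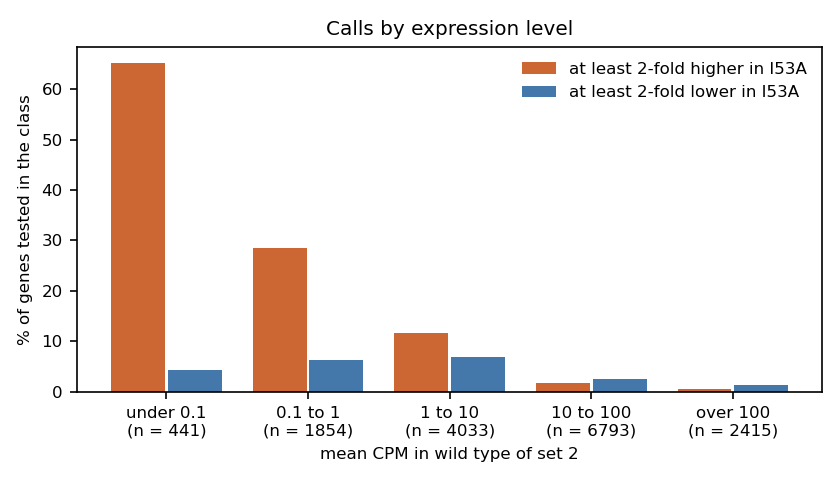
Share of tested genes called at least 2-fold higher (orange) or lower (blue) in I53A, in percent, by mean CPM in the second set's wild type. The orange bars fall from 65.1% under 0.1 CPM to 0.538% over 100 CPM, and the blue bars exceed the orange ones in both classes over 10 CPM.

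Among genes of at least 100 CPM in the second set's wild type, 13 rose and 31 fell at least 2-fold. Peg10, a paternally expressed retrotransposon-derived gene (chromosome 6, 4697306 to 4710514), had 428.7, 438.0 and 519.4 CPM in wild type and 1844.1, 1880.8 and 2050.8 CPM in I53A. Dusp9, a phosphatase of MAP kinases on the X chromosome, had 57.1, 53.7 and 59.2 CPM against 222.8, 218.5 and 229.7. Grb10, an imprinted adaptor of insulin receptor signalling, had 53.6, 51.8 and 54.7 CPM against 189.6, 197.9 and 195.9. For all 3, picked as the largest called rises, the libraries of a group lay close together and the groups did not overlap. Their log2 fold changes were 2.06 ± 0.04 (± SE), 1.98 ± 0.05 and 1.87 ± 0.05, with edgeR adjusted p of 3.3e-16, 5.8e-15 and 2.2e-14. Grb10 and Dusp9 stood at 591.3 and 265.8 CPM in the second set's wild type, above their I53A level here. The autophagy gene Gabarapl2 (1.39 ± 0.08) also rose, and it stood at 104.4 CPM in the second set's wild type, above its I53A level. The ubiquitin ligase gene Rnf213 (1.26 ± 0.06) and the lysosomal protease gene Ctsl (1.25 ± 0.04) rose as well.

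The largest falls at that level included secreted and membrane proteins. Fxyd6, a regulator of the sodium pump (chromosome 9, 45178268 to 45204241), had 104.4, 96.6 and 110.2 CPM in wild type and 20.2, 21.2 and 25.7 CPM in I53A. Trh, the thyrotropin-releasing hormone gene, had 150.1, 143.7 and 133.1 CPM against 37.1, 32.3 and 30.5. Apoe, a lipid carrier, had 889.1, 874.1 and 649.1 CPM against 271.3, 244.1 and 188.0. In the second set's wild type Apoe stood at 237.4 CPM, near its mean of 234.5 CPM in I53A. In none of these 3 genes, picked among the largest called falls, did the groups overlap, and Apoe was lowest in replicate 3 of both. The log2 fold changes were -2.22 ± 0.07, -2.09 ± 0.05 and -1.78 ± 0.04 (± SE), with edgeR adjusted p of 1.4e-13, 2.2e-14 and 2.6e-15. Sfrp1, a secreted Wnt antagonist (-1.81 ± 0.07), and Sall1, a transcription factor (-1.68 ± 0.05), also fell, and both lie on chromosome 8, where most genes were lower. Stmn1, a microtubule-destabilising protein gene, fell by 1.75 on the log2 scale from only 9.44 ± 2.33 CPM (SD, n = 3), although it had 118.9 CPM in the second set's wild type. Of 9208 tested genes of at least 10 CPM there, 122 stood at under 0.1 of that level in the wild type compared here. The file headers name unique alignments for the first set and not for the second, and the part of that difference was not tested.

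Gene length had a weak relation to direction. Genes tested were cut into quintiles by exonic length, from 39 to 1718 bases in the shortest and from 5922 to 116828 bases in the longest. In the shortest quintile 22.7% were called higher and 22.2% lower, and in the longest 28.6% and 35.6%. The median log2 fold changes of the 5 quintiles lay between -0.035 in the longest and 0.019 in the middle one. In the 3 replicate pairs the median of the longest was -0.014, -0.023 and -0.075, so it was below 0 in each. Replicate 3 itself deviated by length. Its genes in the shortest quintile differed from replicates 1 and 2 by a median of -0.099 in wild type and -0.075 in I53A on the log2 scale, and those of the longest by 0.040 and -0.007. In the shortest quintile the shift of replicate 3 was thus larger than that between the groups. Quintiles of genomic span gave medians of 0.027 in the shortest and -0.009 in the longest.

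Within a level class the relation to large rises was stronger. At 0.1 to 1 CPM in the second set's wild type, 15.5% of the shortest and 40.2% of the longest genes were at least 2-fold higher, and at 1 to 10 CPM 5.2% and 18.0%. At 10 to 100 CPM the shares were 1.48% and 1.81%. These are shares of genes tested, and at 0.1 to 1 CPM only 1854 of 4408 genes passed the filter. No count without the filter was made by length, so its part in that class was not tested. At the same CPM a longer gene has a lower level per kilobase, so length and level per kilobase cannot be told apart here.

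Among genes with a mean of at least 10 CPM, the largest rises of the shortest quintile were Dub1a, Dub3 and Mael. Dub1a and Dub3, deubiquitinase genes of a multicopy family on chromosome 7 whose single values are therefore uncertain, had 12.2 ± 1.33 and 8.37 ± 1.02 CPM in wild type and 171.2 ± 19.0 and 103.5 ± 5.05 CPM in I53A (SD, n = 3). Mael, a germline gene of transposon silencing on chromosome 1, rose from 8.52 ± 0.523 to 65.6 ± 3.77 CPM. Ifitm1, an interferon-induced membrane protein gene, fell most, with 257.7, 247.7 and 195.0 against 42.5, 40.1 and 29.7 CPM, followed by Trh and the keratin gene Krt17 (16.1, 14.3 and 20.2 against 3.21, 3.82 and 5.83 CPM). The second set's wild type held Ifitm1 at 58.5, Trh at 105.9 and Krt17 at 7.9 CPM, each between the groups compared here. In each of these genes, picked as the largest called changes, the libraries of the groups lay apart. In the longest quintile Cubn (7.75 ± 0.10), Dab2 (5.31 ± 0.07) and Col4a2 (4.61 ± 0.06) rose most, which encode a pair of endocytic proteins and a basement membrane collagen. Cubn and Dab2 are in the endoderm marker list, and the span of Col4a2 overlaps Col4a1, which is too. Rian (-6.60 ± 0.12) and Meg3 (-5.96 ± 0.13), non-coding RNAs of the region of Rtl1, and Nrp2, a semaphorin receptor gene (-3.49 ± 0.12), fell most. Rian and Meg3 had 0.586 and 0.143 CPM in the second set's wild type, near 0.757 and 0.928 CPM in I53A and far below 73.3 and 58.8 CPM in the wild type compared here.

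Chromosomes differed more than length classes. Of 815 tested genes of chromosome 8, 508 (62.3%) were called lower and 87 (10.7%) higher, with a median log2 fold change of -0.40. Chromosome 14 had 248 of 517 lower (48.0%) and 80 higher (15.5%), with a median of -0.21. The medians of the other autosomes and X lay between -0.07 and 0.11. Larger medians stood on the few genes of the Y chromosome and of mitochondria. On Y, 4 of 6 tested were lower and Usp9y higher, with a median of -1.21, and in mitochondria 11 of 18 were higher, with a median of 0.64. Ddx3y, a Y-linked RNA helicase gene, had 40.4, 37.1 and 35.0 CPM in wild type and 13.7, 13.3 and 11.9 CPM in I53A (-1.53 ± 0.09), and Uty, a Y-linked relative of a histone demethylase, had 20.7, 20.7 and 22.4 against 4.48, 5.62 and 4.26 (-2.14 ± 0.14). For genes with a mean of at least 10 CPM the median of chromosome 8 was -0.41, -0.40 and -0.41 in the 3 replicate pairs, relative to all such genes, and that of chromosome 14 was -0.21, -0.23 and -0.20. The shift ran along both chromosomes. All 13 windows of 10 Mb on chromosome 8 had a median between -0.62 and -0.28, and all 9 on chromosome 14 between -0.30 and -0.20. Of 202 windows on the remaining chromosomes other than 1, 6 had a median under -0.2 and 2 one over 0.2.

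Chromosome 1 changed sign near Rnf2. Of its genes before Rnf2, in rising coordinates, 300 of 621 tested (48.3%) were called higher and 87 lower, with a median log2 fold change of 0.24. Of those after it, 46 of 260 (17.7%) were higher and 134 (51.5%) lower, with a median of -0.27. In 13 windows of 10 Mb before Rnf2 the median lay between -0.01 and 0.46, and in the 4 windows after it between -0.36 and -0.20. Single neighbours followed this only in part. Before Rnf2, Tpr, a nuclear pore protein gene whose span overlaps Prg4, had 667.9, 720.6 and 787.4 CPM in wild type and 819.6, 854.2 and 952.1 CPM in I53A (0.27 ± 0.03). After it, Edem3, a gene of protein quality control, had 118.8, 126.7 and 118.1 CPM against 99.5, 103.1 and 92.8 (-0.30 ± 0.05). Farther on, Tsen15, of transfer RNA splicing, had 11.9 ± 2.23 CPM against 10.8 ± 1.36 CPM (SD, n = 3) and passed no threshold (edgeR adjusted p = 0.37). The split at Rnf2 and these neighbours were chosen after the values were seen and are a description.

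**Figure D3:**
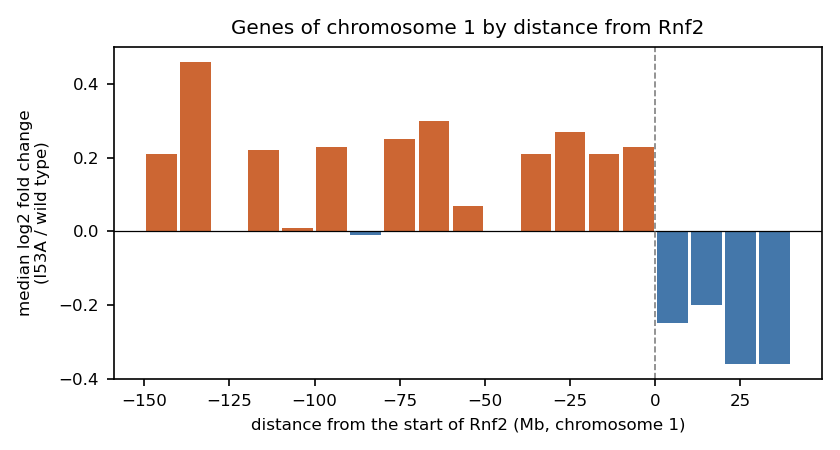
Median log2 fold change of genes of at least 10 CPM in windows of 10 Mb along chromosome 1, by distance from the start of Rnf2 in Mb (dashed line at 0), in orange above 0 and blue below. The medians lie between -0.01 and 0.46 before Rnf2 and between -0.36 and -0.20 after it.

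The second set's wild type gives a reference outside the contrast for each autosome and X. It held almost no Y-linked RNA, with means of 0.156 CPM for Ddx3y, 0.278 for Uty and 1.61 for Eif2s3y, against 37.5, 21.3 and 63.3 CPM in the wild type compared here, so the wild types of both sets differed in the RNA of that chromosome. Relative to it and to all genes of at least 10 CPM, the median log2 level of chromosome 8 was -0.10, -0.11 and -0.07 in the wild type libraries and -0.50, -0.51 and -0.49 in those of I53A. Chromosome 14 stood at 0.10, 0.09 and 0.05 against -0.12, -0.09 and -0.15. Genes of chromosome 1 before Rnf2 stood at -0.15, -0.15 and -0.16 against 0.08, 0.10 and 0.08, and those after it at -0.19, -0.17 and -0.19 against -0.38, -0.33 and -0.41. In none of these did the groups overlap, and the wild type libraries of both sets also lay apart in each of them (the second set's between -0.02 and 0.02). Lack of overlap alone does not mark these parts. The groups also lay apart on several other chromosomes with small shifts, such as 2 (0.04, 0.03 and 0.03 against 0.07, 0.06 and 0.06). They overlapped on others, such as 4. On chromosome 12 the wild types of both sets lay apart too (-0.10, -0.08 and -0.07 against 0.01, 0.01 and -0.02). Differences in chromosome copies between the cultures were not tested. Without chromosomes 8, 14 and 1 after Rnf2, 29.8% of 13944 genes were higher and 25.4% lower. Changes of at least 2-fold numbered 1319 higher and 493 lower. Only parts with more genes lower than higher were left out. Chromosome 1 before Rnf2 (300 of 621 higher and 87 lower) was kept, here and in later counts of this kind.

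**Figure D4:**
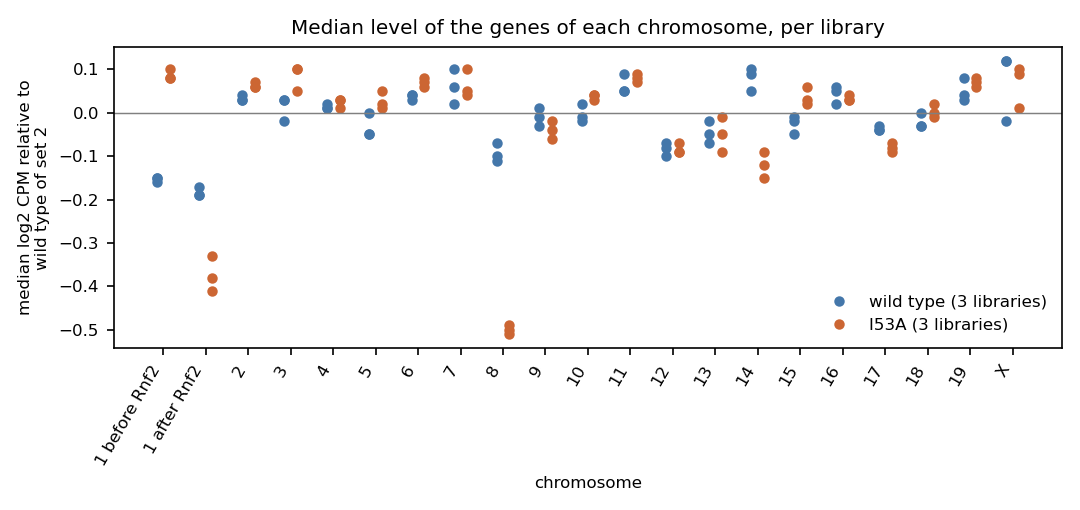
Median log2 CPM of genes of at least 10 CPM per autosome and X (Y and mitochondria not drawn) in each library, relative to the second set's wild type and to all such genes, with wild type in blue and I53A in orange. Chromosomes 8 and 14 and both parts of chromosome 1 separate the groups most among those drawn, with I53A at -0.51 to -0.49 on chromosome 8.

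Gene families were described by counts of members and medians, beside 28.1% higher, 28.5% lower and a median near 0 over all genes. Members near 0 counts in wild type pass the filter only through I53A, so where few members of a family were tested its rises are a description. Of the Zfp-named zinc finger genes, mostly DNA-binding regulators, 348 of 370 in the annotation were tested, and 46 (13.2%) were higher and 142 (40.8%) lower, with a median of -0.21. Away from chromosomes 8, 14 and 1 after Rnf2 the numbers were 44 and 121 of 319, with a median of -0.16. Without the block 26 were higher and 93 lower. The largest changes went against this direction and were rises, of Zfp9 (3.36 ± 0.48), Zfp353 (3.15 ± 0.67) and Zfp352 (3.02 ± 0.18), the last from 1.63, 2.9 and 1.68 CPM to 18.9, 18.2 and 13.1 CPM.

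Germline and X-linked multicopy families moved in both directions. Of 9 tested Prame-like genes, a family expressed in germ cells and early embryos, 7 rose and 2 fell. Pramef6 had 0.0561, 0.446 and 0 CPM in wild type and 2.71, 3.77 and 2.29 CPM in I53A, and Pramel3 and Pramel5 rose by 4.39 and 4.21 on the log2 scale. Of 7 tested Tudor domain genes, most of which act in the piRNA pathway of germ cells, 5 rose and Tdrd12 fell. Tdrkh had 6.68, 7.86 and 5.73 CPM against 37.9, 41.1 and 36.3 (2.50 ± 0.10), and Tdrd1 (1.67 ± 0.21) and Tdrd9 (1.61 ± 0.32) also rose. Among 8 tested Mage genes 5 rose by edgeR's test, and 2 without the block. Magel2, an imprinted member, had 0.73, 1.28 and 0.458 CPM against 4.54, 5.34 and 3.31. All 9 Xlr genes, a multicopy family of the X chromosome, were tested, and 5 fell and 2 rose, against 2 and 1 without the block. Xlr5c had 1.29, 2.06 and 1.53 CPM against 0.166, 0.225 and 0.315, while Xlr4a was higher (1.18 ± 0.15). Xlr and Prame-like genes have close copies, so single members are uncertain.

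Glutathione transferase and Mcm genes were lower more often than higher. Of 19 tested glutathione transferase genes, which conjugate glutathione to reactive compounds, 10 fell and 4 rose, with a median of -0.49. Gstt1 had 7.97, 7.75 and 5.88 CPM in wild type and 1.88, 1.52 and 2.37 CPM in I53A (-1.93 ± 0.23), and Gstp2 fell too (-1.55 ± 0.35). Gstk1 went the other way, from 3.37, 2.12 and 2.67 to 6.81, 9.05 and 10.5 CPM (1.67 ± 0.22). The libraries of the groups did not overlap for any of these 3, which were picked as the largest called changes. Among 9 Mcm genes, most of which serve DNA replication, 6 fell and 1 rose, with a median of -0.26, and 3 fell without the block. Mcm10 had 277.5, 289.8 and 265.5 CPM against 183.5, 173.2 and 182.8 (-0.63 ± 0.05). Mcm5, which lies on chromosome 8, had 576.1, 577.0 and 648.1 CPM against 455.1, 442.1 and 515.7. Cytochrome P450 genes, which also act on foreign compounds, had 8 of 24 tested higher and 3 lower. Of 23 dynein and intraflagellar transport genes of cilia, 9 fell and 2 rose, with a median of -0.21.

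Secreted Adamts proteases, matrix metalloproteinases with their inhibitors, serpins and tetraspanins were higher more often than lower. Of 25 tested ADAM and ADAMTS genes, 14 rose and 5 fell, with a median of 0.53. The Adamts genes held 10 of these rises and 1 of the falls among 15 tested, and the Adam genes 4 and 4 among 10. Adamts9, a secreted protease that cuts proteoglycans, had 21.8, 23.3 and 19.6 CPM against 83.8, 86.9 and 76.5 (1.93 ± 0.06). Of 16 matrix metalloproteinase and Timp genes 7 rose and 3 fell, with Mmp25 at 2.02, 2.34 and 1.45 against 10.5, 9.84 and 12.9 CPM. Mmp12 was at 0 counts in every wild type library and at 0.775, 0.618 and 0.631 CPM in I53A, and its span overlaps Mmp1b. Of 17 tested serpin genes out of 61, 8 rose and 2 fell. Serpinh1, a chaperone of collagen, had 10.8, 10.3 and 9.47 CPM against 134.6, 139.4 and 128.9 (3.72 ± 0.07), so every I53A library lay above every wild type library. Of 24 tested tetraspanin genes, which organise membrane proteins, 13 rose and 2 fell, with a median of 0.32, and 9 rose without the block. Cd82 had 0.786, 0.837 and 0.534 CPM against 2.71, 3.48 and 3.23.

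Larger families of general function differed among themselves. Of 252 tested solute carriers, 93 were higher (36.9%) and 73 lower (29.0%), with a median of 0.07. Slc34a2, a phosphate transporter gene, had the highest fold change of them, with 0.224, 0.167 and 0.0763 CPM in wild type and 4.87, 5.84 and 7.49 CPM in I53A (5.11 ± 0.38). Translation initiation factors had 24 of 56 higher (42.9%) and 11 lower (19.6%), with a median of 0.11. Eif2s2 led them at 124.2, 138.3 and 143.5 against 262.5, 275.9 and 300.8 CPM. It stood at 820.6 CPM in the second set's wild type, above both groups. Of 83 ribosomal protein genes 7 were higher (8.43%) and 15 lower (18.1%), 3 and 2 without the block, and 52 of them stood at under 0.1 of their second-set wild type CPM in the wild type compared here.

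**Figure D5:**
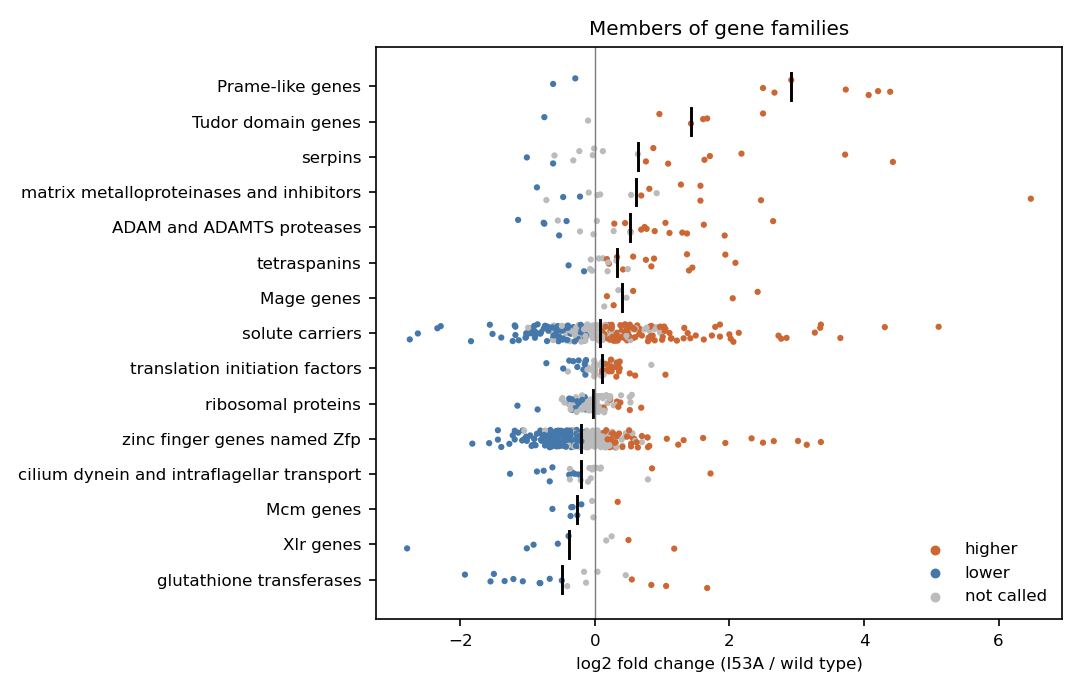
Log2 fold changes of the tested members of 15 gene families, 1 point per gene, in orange where called higher, blue where called lower and grey otherwise, with a black bar at the family median. Prame-like genes have the highest median shown (2.92) and glutathione transferases the lowest (-0.49).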

How the data were processed

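Deposited tables of raw counts were used, 6 of the first RNA-seq set and 3 wild type ones of the second. Per the file headers, the authors counted with featureCounts 1.6.3 by gene name on mm9, with no strand option, and first-set alignments are named TopHat and unique. The submitters' processing notes also name HISAT2, and the sources used here give no method of RNA selection. EdgeR 4.0.16 (R 4.3.3) gave TMM factors, CPM and a two-sided quasi-likelihood test (robust, filterByExpr, Benjamini-Hochberg threshold 0.05) with the replicate number as a block. Deviations of same-numbered libraries from their group means correlated at 0.229, 0.258 and 0.491, above the limit of 0.1 used here for pairing. Those of replicates 1 and 2 crossed correlated at 0.218 and 0.241. The values thus cannot show how replicates 1 and 2 pair, and the block separates mainly replicate 3. DESeq2 1.42.0 was an alternative. SE is the size of the log2 fold change over the root of the F statistic. Chromosome levels per library use log2 of CPM plus 0.5. The fit was tested on simulated data. Named genes follow a rule: Rnf2, the 10 highest genes switched on and those switched off, the 6 largest called rises and falls of at least 100 CPM, 3 of each in the shortest and longest quintile at 10 CPM or more, and up to 3 called per family, without provisional names. Others are marked as chosen after their values were seen or belong to a marker list. Groups that do not overlap are to be looked for in genes picked by their change. The share of such genes over all genes tested was not counted. Some results that this rule would name are not reported here. The comparison, families and lists were chosen with earlier results of these data known, and 2 family name patterns were narrowed after a look at their members.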

Additional observations from a re-analysis of the deposited data

How the results depend on the processing

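Without the replicate block 2808 genes were called higher and 2703 lower, while changes of at least 2-fold stayed within 1.5 times, at 1307 and 561. Leaving out 1 library at a time gave 3305 to 4543 higher, 3382 to 4515 lower, 1255 to 1523 at least 2-fold higher and 552 to 660 at least 2-fold lower. The file-name style in place of the block, DESeq2 (3321 higher, 3183 lower), other size factors, other filters and leaving out chromosomes 8, 14 and 1 after Rnf2 (added after seeing the data) kept these 4 counts within 1.5 times. The genes switched on went from 25 to 6 with silence at 0 counts, 81 at up to 10 counts, 61 with activity at 0.5 CPM and 11 at 2 CPM, and ranged from 26 to 48 without single libraries (48, 38 and 39 without wild type replicates 1, 2 and 3, since fewer samples were summed). Those switched off went from 2 to 1, 5, 3 and 1 under these limits, and ranged from 2 to 4 without single libraries, with 4 without I53A replicate 1. Genes at least 2-fold lower among those under 1 CPM in the second set's wild type went from 136 to 79 with a minimum of 1 CPM in 3 samples, to 258 with classes by level per kilobase, and ranged from 99 to 153 without single libraries. With those classes the 127 higher and 202 lower at 10 CPM or more became 49 and 92. The median of the shortest quintile went from 0.014 to 0.082 with no low-count filter and ranged from -0.016 to 0.023 without single libraries. Chromosome 8 went from -0.400 to -0.385 with library totals, -0.370 with no filter and -0.443 at 10 CPM or more, and ranged from -0.411 to -0.394 without single libraries. Chromosome 14 went from -0.211 to -0.196, -0.177 and -0.246, and ranged from -0.230 to -0.221. Medians were also followed for 41 families with 5 or more genes tested. With the run without a filter left aside, the largest move of a family median was 3.36 on the log2 scale. A family median can thus depend strongly on the setting. Of 222 named or listed genes, 17 lost their call without the block and 12 with DESeq2, and 21 lost it without some library. None reversed. The promoter classes were not run. The cause of these moves was not tested, except where given.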

Other observations

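Long non-coding RNAs were lower more often than higher, as a smaller share was called higher than among protein-coding genes. The share called lower was not larger. Of 390 tested genes that RefSeq lists as lncRNA, 39 (10.0%) were higher and 103 (26.4%) lower in I53A, with a median log2 fold change of -0.22. Of 12323 protein-coding genes 29.9% were higher and 29.6% lower. At 2-fold or more, 6.41% of the lncRNA genes were higher and 14.4% lower, against 9.4% and 3.68% of the protein-coding genes. Genes listed as pseudogenes had 142 of 616 higher and 108 lower. The difference between these classes was not tested, and the classes were added after the data were examined.

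Genes were also grouped by the letters that begin their symbols, beside 28.1% higher and 28.5% lower over all genes tested. Only genes past the low-count filter entered. Few of the 1096 olfactory receptor genes in the annotation were tested, for example. Members near 0 counts in wild type pass the filter only through I53A, so high medians are a description. Of 229 such groups with at least 8 genes tested, the highest medians were those of Bmp (1.46, 5 of 8 higher and 1 lower), Wnt (1.43, 8 of 12 higher), Olfr (1.37, 4 of 8 higher and 1 lower), Col (1.06, 17 of 30 higher and 1 lower) and Tbx (1.03, 5 of 8 higher). These name signalling ligands, olfactory receptors, collagens and T-box transcription factors. The lowest were Gstm (-0.89, 6 of 8 lower and 1 higher), Sept (-0.40, 6 of 11 lower and 1 higher), Prss (-0.39, 3 of 9 lower and 3 higher) and Xlr (-0.39, 5 of 9 lower and 2 higher).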
